A study of Mus musculus with 4 samples.

Results

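Glomerular capillary endothelium is the fenestrated lining of the filtration tuft of the kidney. Cells of this class were taken as droplet barcodes with at least 500 unique molecular identifiers (UMIs), at least 300 genes and a mitochondrial share under 50% that met a gate on named genes. The gate asked for at least 3 detected of Pecam1, Kdr, Emcn, Egfl7, Flt1, Cdh5 and Eng, no Ptprc, at least 1 UMI of Ehd3, no Plvap, and at most 1 detected of Gja5, Gja4, Sox17, Fbln5 and Bmx. It held 260 of the 40939 barcodes that passed the depth filters and 260 of 8063 endothelial barcodes. The study made 1 droplet library from the kidney of each of 4 wild-type mice. All 4 mice had undergone contrast-induced acute kidney injury, in which imaging contrast medium harms the kidney, and all 4 are labelled as batch 1. No untreated mice are among the samples used here, so the comparisons set vessel types of injured kidneys against each other and say nothing of what contrast medium did. The agent, its dose, the strain, the age and the time of collection are not given in the sources used here.

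Endothelium of the glomerulus filters plasma through open fenestrae, whereas that of the peritubular capillaries takes up fluid from the tubules through fenestrae bridged by diaphragms built from PLVAP. Arterial and arteriolar endothelium is continuous and is marked by connexins and by SOX17. VEGF from podocytes, the epithelial cells that wrap the tuft, is known to maintain glomerular endothelium, and EHD3, a membrane-trafficking protein, is the classic marker that separates it from the other renal vessels.

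The gate held 55, 54, 130 and 21 cells of mice 1 to 4. These were 6.61%, 3.20%, 3.66% and 1.05% of the endothelial barcodes of each mouse, with exact Clopper-Pearson 95% intervals of 5.02 to 8.52%, 2.41 to 4.16%, 3.07 to 4.33% and 0.654 to 1.61%. The mean share was 3.63% ± 2.29 (SD, n = 4). The share was highest in mouse 1 and lowest in mouse 4, and the intervals of these mice did not overlap with those of the others. The cells held medians of 4702, 6104, 5954 and 3009 UMIs, and the summed class held 302301, 385401, 842821 and 64172 UMIs. Intervals cover counting error only. No barcode in the gate occurred in the gate of another library, and 88 filtered barcodes were shared over all pairs of libraries. Mice 1 and 2 shared 22 of them, mice 1 and 3 shared 25, and mice 2 and 3 shared 40. Mouse 4 shared 0, 1 and 0 with mice 1, 2 and 3, and the cause was not tested.

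Peritubular endothelium was gated by the same endothelial, Ptprc and arterial conditions with Plvap present and Ehd3 at 0, and held 305, 637, 1754 and 1412 cells. Arterial endothelium needed 2 or more of the 5 arterial genes, whatever its Ehd3 and Plvap, and held 125, 169, 431 and 169 cells. Endothelial barcodes with UMIs of both Ehd3 and Plvap (309, 790, 330 and 304 cells) and those with neither (38, 37, 907 and 86 cells) entered no comparison. The group with neither made up 25.5% of the endothelial barcodes of mouse 3, against 4.57%, 2.19% and 4.32% in mice 1, 2 and 4. Levels below are UMIs summed per mouse and class, scaled to counts per 1000000 UMIs of that class (CPM), with no correction for gene length.

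The cells were chosen by their UMIs of the 15 genes of the gate, so these values are a description and were not tested. Ehd3 stood at 3186, 2122, 257 and 935 CPM in the gate, and 47, 43, 44 and 11 of its cells held 2 or more Ehd3 UMIs. Kdr, the main VEGF receptor, had 2286, 1591, 702 and 577 CPM in glomerular endothelium, against 905, 1113, 857 and 387 CPM in peritubular endothelium. Emcn, an endothelial sialomucin, had 2964, 2109, 1251 and 2867 CPM in glomerular endothelium, against 1595, 1843, 2284 and 2375 CPM in peritubular endothelium. In mouse 3 both Kdr and Emcn were thus lower in the glomerular gate than in the peritubular one. Just inside the gate, the 115 cells with a single Ehd3 UMI had Lpl levels of 269, 938, 312 and 611 CPM. Just outside it, the cells with neither Ehd3 nor Plvap had 163, 153, 107 and 10.9 CPM of Lpl. Cells with Ehd3 left out for 1 UMI of Plvap had 1455, 2252, 14.8 and 0 CPM of Lpl. Plat, a marker described below, stood at 1050, 407, 938 and 1075 CPM in the 38 gated cells with only 3 endothelial genes. In the whole gate Plat stood at 10437, 9715, 13558 and 3101 CPM. Pdgfrb, a mesangial marker, stood at 744, 896, 590 and 410 CPM in those 38 cells, against 56.2, 202, 165 and 125 CPM in the whole gate.

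Ehd3 was not confined to endothelium in these libraries. The share of cells with an Ehd3 UMI was 59.1%, 59.3%, 12.5% and 19.6% among Plvap-negative endothelium, that is the gate together with the cells negative for both genes. It was 50.3%, 55.4%, 15.8% and 17.7% among Plvap-positive endothelium. T lymphocytes, taken as the 112, 116, 169 and 1164 barcodes with Cd3e and Trbc2 and none of the endothelial genes, are not known for Ehd3. They gave 31.2%, 32.8%, 13.0% and 3.44% at medians of 5592, 6339, 4992 and 1902 UMIs, against 3229, 4796, 2503 and 1508 UMIs in Plvap-negative endothelium. With each cell thinned to 1000 UMIs, Plvap-negative endothelium had shares of 52.8%, 50%, 3.12% and 14.8%, against 8.04%, 6.96%, 4.22% and 1.75% in T lymphocytes. Thinning left out 21, 17, 108 and 26 shallower cells of Plvap-negative endothelium and 0, 1, 3 and 22 T lymphocytes. In mouse 3 the share lay at that of T lymphocytes, so by itself it is not read there as expression of Ehd3. It is taken over the gate and the cells with no Ehd3 together, and markers that the gate did not use are given for the gated cells below. Each fit was also made without mouse 3.

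**Figure D1:**
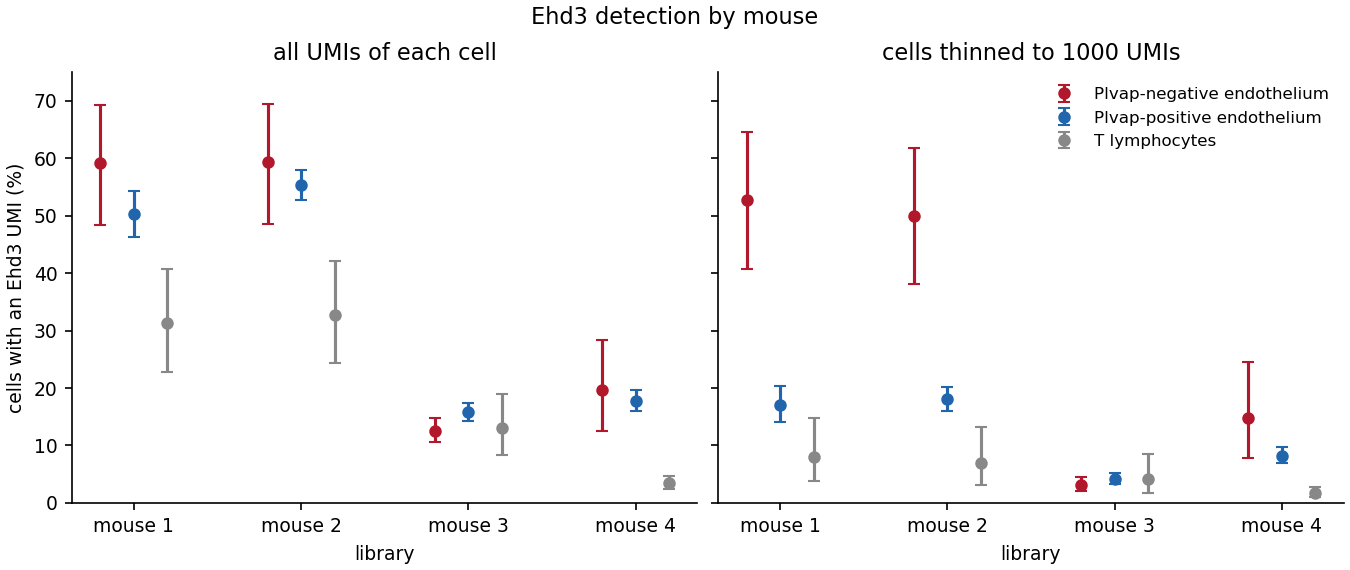
Share of cells with at least 1 Ehd3 UMI (%) in Plvap-negative endothelium, Plvap-positive endothelium and T lymphocytes of each library, with all UMIs (left) and after thinning each cell to 1000 UMIs (right). Points are shares and bars are exact 95% intervals. Thinned shares of Plvap-negative endothelium are 52.8%, 50% and 14.8% in mice 1, 2 and 4, above both other classes though with overlapping endothelial intervals in mouse 4, and 3.12% in mouse 3, where the intervals of all 3 classes overlap.

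The label was checked against Gata5, Tbx3, Sost, Pi16, Plat and Lpl, glomerular endothelial markers that the gate did not use. At least 3 of these 6 were detected in 38 of 55, 41 of 54, 32 of 130 and 12 of 21 cells of the gate (69.1%, 75.9%, 24.6% and 57.1%). The same was true of 0.984%, 0.785%, 0.114% and 0.212% of peritubular cells and of 34.4%, 25.4%, 4.18% and 4.14% of arterial cells. Most cells of mice 1, 2 and 4 therefore carried the label by independent genes, while in mouse 3 fewer did, although there too the share was above that of the other classes. Gata5, a GATA transcription factor, gave 112, 70.1, 4.75 and 77.9 CPM in glomerular endothelium and no UMI in peritubular endothelium of any mouse. With UMIs pooled over the 4 mice, and against a floor of 3 counts over the peritubular group, the ratio is 226. The mice contribute unequally to this pool, so the ratio is not a lower bound for a single mouse. Sost, the Wnt inhibitor sclerostin, was near its detection limit with 6.62, 0, 0 and 15.6 CPM in glomerular endothelium.

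Promoters of 4 genes are shown so that genes with more and with fewer CPM in the glomerular than in the peritubular class can be compared base by base. They are not the genes with the largest fold changes, and Gata5 had too few counts to be tested against peritubular endothelium. Each is the 250 bases before the RefSeq gene start (GRCm38.p6), 5′ to 3′ on the strand of the gene, and capitals mark GGAA on either strand, the core of sites for ETS factors of endothelium. Gata5 (chr2:180334680-180334929, minus strand) and Sema5a (chr15:32244563-32244812, plus strand) had more CPM in the glomerular than in the peritubular class of each mouse. Apln (chrX:48034854-48035103, minus strand) and Irx3 (chr8:91801655-91801904, minus strand) had fewer.
Gata5: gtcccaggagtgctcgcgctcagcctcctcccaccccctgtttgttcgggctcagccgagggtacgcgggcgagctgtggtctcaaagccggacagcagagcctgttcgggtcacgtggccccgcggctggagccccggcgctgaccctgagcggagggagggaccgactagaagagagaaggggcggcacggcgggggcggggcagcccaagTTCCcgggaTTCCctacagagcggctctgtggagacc
Sema5a: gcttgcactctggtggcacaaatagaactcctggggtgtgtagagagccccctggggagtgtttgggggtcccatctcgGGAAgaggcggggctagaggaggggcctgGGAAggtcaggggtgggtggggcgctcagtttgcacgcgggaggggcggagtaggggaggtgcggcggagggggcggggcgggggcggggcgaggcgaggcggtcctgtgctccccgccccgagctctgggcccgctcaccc
Apln: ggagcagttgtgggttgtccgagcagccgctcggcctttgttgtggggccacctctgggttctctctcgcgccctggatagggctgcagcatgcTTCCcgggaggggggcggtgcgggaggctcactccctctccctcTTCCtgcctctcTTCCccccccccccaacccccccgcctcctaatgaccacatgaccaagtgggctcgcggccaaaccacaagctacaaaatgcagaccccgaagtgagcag
Irx3: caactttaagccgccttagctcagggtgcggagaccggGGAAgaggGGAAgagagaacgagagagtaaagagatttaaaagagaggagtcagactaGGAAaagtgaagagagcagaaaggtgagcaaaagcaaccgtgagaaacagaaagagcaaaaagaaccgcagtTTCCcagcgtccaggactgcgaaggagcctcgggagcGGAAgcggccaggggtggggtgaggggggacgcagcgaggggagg
GGAA occurred 2 times in Gata5, 2 times in Sema5a, 3 times in Apln and 5 times in Irx3. It is a common word, present in 93.4% of 32851 RefSeq promoters of this length. The core of sites for GATA factors was searched on both strands as GATAA, which none of these windows holds, against 22.6% of all promoters. For SOX factors the search word was ACAAT, likewise in none of these windows and in 27.7% of all promoters. The Gata5, Sema5a, Apln and Irx3 windows have a GC content of 70.0%, 72.0%, 65.2% and 56.0%, against a median of 52.4% over all promoters.

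Glomerular endothelium was first set against peritubular endothelium. Among the genes described below, Lpl, Plat, Sema5a and Tbx3 were higher, and Igfbp3, Apln, Irx3 and all 4 tested genes of MHC class II were lower. Of 9076 genes tested across the 4 mice, 6.75% were called, of which 293 were higher (3.23%) and 320 were lower (3.53%) at an adjusted p under 0.05 in edgeR's quasi-likelihood test with the mouse as a block. Without the block 34 were higher and 9 lower, and without mouse 2 the counts were 136 and 122. Without mouse 3 they were 307 and 362. The genes of the gate were left out of all tests. All genes named below as higher or lower, with the exception of Mgp, moved that way in 4 of 4 mice. Ranges that did not overlap are described for single named genes, and the share of all tested genes with ranges apart is not given. The naming rule took large fold changes with the same direction in every mouse, which favours such ranges.

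Of the 12 genes listed for glomerular endothelium, 10 passed the count filter, 8 were higher and 1 was lower, with a median log2 fold change of 3.00 against -0.05 over all genes tested. With mice 1 to 4 left out in turn, 7, 7, 8 and 8 were higher. Lpl, which encodes lipoprotein lipase, had 3023, 4458, 276 and 1808 CPM in glomerular endothelium, against 14.8, 5.05, 9.20 and 2.20 CPM in peritubular endothelium. The ranges were far apart even though mouse 3 was the lowest of the glomerular values. Its log2 fold change was 7.69 (SE 0.70, adjusted p = 4.43e-05), the largest among the genes with 50 CPM or more that the naming rule takes. Plat encodes tissue plasminogen activator, which starts fibrinolysis, and had 10437, 9715, 13558 and 3101 CPM in glomerular endothelium, against 986, 1429.8, 3250.5 and 639 CPM in peritubular endothelium. With mitochondrial and ribosomal protein genes left out, it was the most abundant coding transcript of the class by its mean. In mouse 4 other genes stood above it, such as Fabp4 at 10487 CPM. Within each mouse Plat was higher than in the peritubular class (log2 fold change 2.52, SE 0.29, adjusted p = 0.000202). Still, mouse 4 of the glomerular class lay below mouse 3 of the peritubular class.

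Sema5a, a transmembrane semaphorin, had 586, 592, 144 and 77.9 CPM in glomerular endothelium, against 7.02, 4.71, 11.7 and 2.83 CPM in peritubular endothelium (log2 fold change 5.25, SE 0.50, adjusted p = 6.04e-05). Tbx3, a T-box transcription factor, had 539, 547, 165 and 203 CPM in glomerular endothelium, against 11.7, 7.07, 14.3 and 5.97 CPM in peritubular endothelium (log2 fold change 4.89, SE 0.40, adjusted p = 2.29e-05). For both genes the classes did not overlap, and mice 1 and 2 were well above mice 3 and 4 in the glomerular class. Mapt, which encodes the microtubule protein tau, had 476, 314, 55.8 and 109 CPM in glomerular endothelium, against 19.5, 13.5, 5.10 and 18.9 CPM in peritubular endothelium (log2 fold change 3.86, SE 0.34, adjusted p = 3.85e-05). Pi16, a secreted peptidase inhibitor, had 152, 226, 4.75 and 187 CPM in glomerular endothelium, against 25.8, 10.8, 0.498 and 12.6 CPM in peritubular endothelium. It was near absent from mouse 3 in both classes, yet its difference held within that mouse (log2 fold change 3.48, SE 0.33, adjusted p = 6.01e-05). Smad6, an inhibitor of BMP signalling, had 265, 187, 144 and 218 CPM in glomerular endothelium, against 82.0, 74.4, 53.1 and 84.9 CPM in peritubular endothelium, the most even of these levels among mice (log2 fold change 1.38, SE 0.20, adjusted p = 0.000946). Ptprb, the endothelial phosphatase VE-PTP, was the list's lower member with a log2 fold change of -0.95 (SE 0.20, adjusted p = 0.0133), and lost its call without mouse 1 (-0.998, adjusted p = 0.0547) and without mouse 2 (-0.94, adjusted p = 0.134). It was also not called without the cells with mesangial or podocyte UMIs described below (-0.69, adjusted p = 0.105).

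The naming rule also took 3 transcripts that were nearly absent from peritubular endothelium. The noncoding RNA Meg3 had 36.4, 31.1, 71.2 and 171 CPM in glomerular endothelium, against 2.99 CPM in peritubular endothelium of mouse 3 and no UMI in the others. Ankdd1b had 89.3, 101, 21.4 and 62.3 CPM in glomerular endothelium, against 0.746 CPM in peritubular endothelium of mouse 3 and no UMI in the others. Gm14226 had 89.3, 153, 19.0 and 31.2 CPM in glomerular endothelium, against 0.781, 1.01, 0.124 and 0.629 CPM in peritubular endothelium. All 3 passed the test, with adjusted p of 0.000201, 8.91e-05 and 7.86e-06 in the edgeR fit.

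Genes that were low in glomerular endothelium included a ligand, growth factor binding and matrix proteins and homeobox factors. Igfbp3, which binds insulin-like growth factors, had 198, 184, 1546 and 389.6 CPM in glomerular endothelium, against 6144, 8047, 12959 and 3053 CPM in peritubular endothelium (log2 fold change -4.23, SE 0.39, adjusted p = 5.23e-05). Mouse 3 stood high in both classes and the classes did not overlap. Apln, the ligand apelin, had 0, 2.59, 5.93 and 0 CPM in glomerular endothelium, against 151, 108, 67.0 and 17.3 CPM in peritubular endothelium (log2 fold change -4.60, SE 0.45, adjusted p = 8.08e-05). Esm1, a proteoglycan also called endocan, had 16.5, 158, 122 and 109 CPM in glomerular endothelium, against 1363, 1797, 833 and 535 CPM in peritubular endothelium (log2 fold change -3.64, SE 0.42, adjusted p = 0.000217). Neither gene overlapped between the classes. In the list of VEGF, angiopoietin, adrenomedullin and apelin signalling, to which both belong, 2 of 13 tested genes were higher and 3 lower, with a median log2 fold change of -0.84. With mice 1 to 4 left out in turn, 1, 0, 2 and 2 were higher and 2, 2, 7 and 3 were lower. Vegfa, which encodes the growth factor VEGF-A, had 52.9, 28.5, 22.5 and 15.6 CPM in glomerular endothelium, against 7.81, 4.38, 14.4 and 7.23 CPM in peritubular endothelium. It was higher by a log2 fold change of 1.70 (SE 0.45, adjusted p = 0.0426), and lost its call without mouse 1 (1.32, adjusted p = 0.265), without mouse 2 (1.38, adjusted p = 0.254) and without mouse 4 (1.79, adjusted p = 0.101). The other higher member, Nrp1, a VEGF co-receptor, had 1793, 1178, 146 and 280.5 CPM in glomerular endothelium, against 383, 425, 69.9 and 129 CPM in peritubular endothelium. It was higher by a log2 fold change of 1.42 (SE 0.26, adjusted p = 0.00448), and missed the threshold without mouse 2 (1.38, adjusted p = 0.0501).

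Irx3 and Irx5 are neighbouring Iroquois homeobox genes. Irx3 had 6.62, 5.19, 32.0 and 46.7 CPM in glomerular endothelium, against 257, 285, 135 and 244 CPM in peritubular endothelium (log2 fold change -3.42, SE 0.44, adjusted p = 0.000518). Irx5 had 6.62, 0, 3.56 and 15.6 CPM in glomerular endothelium, against 112, 99.0, 35.0 and 92.4 CPM in peritubular endothelium (log2 fold change -4.14, SE 0.44, adjusted p = 0.000142). Neither overlapped between the classes, nor did the homeobox gene Meox1, with 19.8, 31.1, 8.31 and 15.6 CPM in glomerular endothelium, against 132, 136, 42.4 and 154 CPM in peritubular endothelium (log2 fold change -2.48, SE 0.27, adjusted p = 0.000151). Of 17 tested endothelial transcription factors, 2 were higher and 4 lower, and Irx3 and Meox1 were the members whose calls held with each mouse left out. The other lower genes taken by the rule were Lbp, the lipopolysaccharide binding protein, Rgcc, a cell cycle regulator, Sema3d, a secreted semaphorin, Tll1, a tolloid protease, Kcnj8, a potassium channel subunit, and Ccdc85a. Their log2 fold changes ran between -4.03 for Lbp and -3.60 for Ccdc85a. Of 8 tested genes listed for peritubular endothelium, 1 was higher and 2 lower, with a median of -0.12. Igfbp3 was the member whose call held with each mouse left out.

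Of 12 tested genes of junctions and the cytoskeleton 1 was higher and 2 were lower, with a median log2 fold change of -0.12, and 1 of these calls held with each mouse left out. It was that of Cgnl1, a junction protein also called paracingulin, which had 26.5, 44.1, 68.8 and 31.2 CPM in glomerular endothelium, against 336, 303, 225 and 62.5 CPM in peritubular endothelium (log2 fold change -2.46, SE 0.31, adjusted p = 0.000416). Hs3st1, which sulfates heparan chains, had 3.31, 5.19, 5.93 and 15.6 CPM in glomerular endothelium, against 28.1, 40.7, 31.7 and 32.1 CPM in peritubular endothelium (log2 fold change -2.57, SE 0.40, adjusted p = 0.00172). Hs3st1 did not overlap between the classes, and it was the only called gene of 12 tested glycocalyx genes. Hspg2, the basement membrane proteoglycan perlecan, was the only called gene of 14 tested matrix genes (2 lower without mouse 3), with 82.7, 104, 34.4 and 31.2 CPM in glomerular endothelium, against 164, 183, 94.2 and 111 CPM in peritubular endothelium (log2 fold change -1.17, SE 0.23, adjusted p = 0.00807). Genes of Notch signalling (8 tested) and of glycolysis (10 tested) gave 0 calls in edgeR and in DESeq2, and at an unadjusted p under 0.05 these lists had 0 and 1 genes. Without mouse 3 edgeR called 1 lower gene in each, and without mouse 1 it called 1 higher Notch gene. Efnb2, an ephrin of arteries, had 473, 467, 96.1 and 125 CPM in glomerular endothelium, against 109, 112, 38.3 and 36.1 CPM in peritubular endothelium (log2 fold change 1.78, SE 0.22, adjusted p = 0.000403). Alox12, a lipoxygenase listed with the arterial genes, was higher by 2.24 (SE 0.37, adjusted p = 0.00289). The arterial list as a whole had a median of 0.08, with 3 higher and 1 lower of 10 tested, and without mouse 3 with 3 higher and 3 lower.

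**Figure D2:**
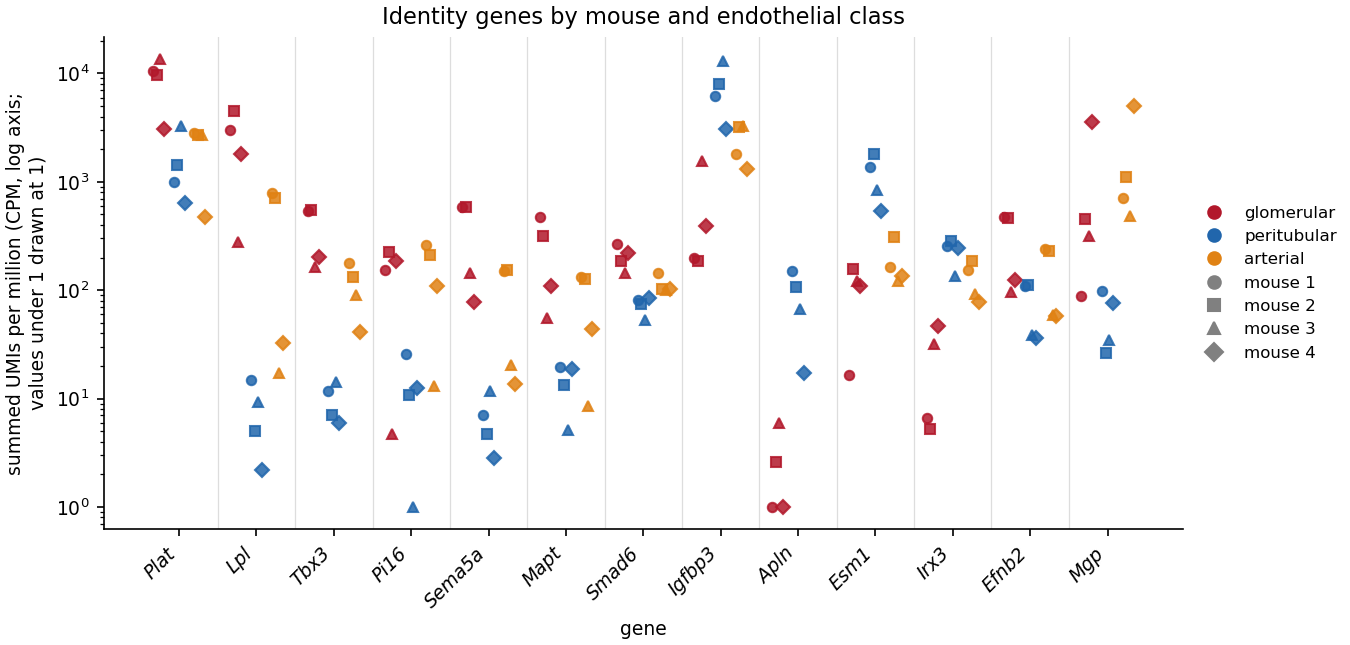
Summed UMIs in CPM (log axis, values under 1 drawn at 1) of 13 identity genes in glomerular, peritubular and arterial endothelium, with 1 symbol per mouse. Lpl lies at 276 to 4458 CPM in the glomerular class and at 2.20 to 14.8 CPM in the peritubular class, whereas Igfbp3, Apln, Esm1 and Irx3 are lower in the glomerular than in the peritubular class.

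Barcodes with 3 or more detected markers of any 1 non-endothelial cell type, called mixed below, were 7, 19, 27 and 3 of the gated cells. Neutrophil markers (4 genes) summed to 321, 462, 43.9 and 0 CPM in the gate, against 542, 689, 108 and 52.5 CPM in peritubular endothelium. Those of T or NK cells (4 genes) summed to 3.31, 0, 4.75 and 374 CPM, against 3.90, 4.04, 3.73 and 90.2 CPM. The source of these UMIs was not tested. Some cells of the gate also held transcripts of mesangial cells, the contractile cells inside the tuft. UMIs of Pdgfrb, Itga8 or Nphs1, markers of mesangial cells and podocytes, occurred in 2, 7, 26 and 1 of the gated cells. The summed level of 7 mesangial, pericyte and smooth muscle markers was 549, 2278, 1889 and 1356 CPM in glomerular endothelium, against 98.3, 89.2, 325 and 369 CPM in peritubular endothelium, with no marker at 0 in either. In every mouse this sum was larger in the gate than in peritubular endothelium, and no test was run on it.

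Genes with this pattern were among those most above peritubular endothelium. Agtr1a, the angiotensin II receptor, had 49.6, 148, 166 and 31.2 CPM in glomerular endothelium, against 1.56, 1.01, 6.84 and 0.943 CPM in peritubular endothelium. Pdgfrb, the receptor for PDGF-B, had 56.2, 202, 165 and 125 CPM in glomerular endothelium, against 0.781, 2.02, 10.8 and 2.20 CPM in peritubular endothelium. Both were higher, by log2 fold changes of 5.15 (SE 0.39, adjusted p = 1.27e-05) and 4.91 (SE 0.41, adjusted p = 2.29e-05). With the 36 marked cells of the gate left out, and the same done in the other class, Agtr1a had 0, 0, 1.65 and 0 CPM in glomerular endothelium, while Pdgfrb had none by the way cells were left out. Tagln, Col1a2, Lhfpl6, Rgs5 and Gucy1a1, which were also called higher, likewise had too few counts to be tested then. Igfbp7, a matrix protein listed for peritubular endothelium, had 314, 1393, 1162 and 3662 CPM in glomerular endothelium, against 247, 217, 662 and 552 CPM in peritubular endothelium. Its log2 fold change of 1.55 (SE 0.34, adjusted p = 0.0163) turned to -1.87 (SE 0.41, adjusted p = 0.0111) without the marked cells, and lost its call without mouse 2 (1.14, adjusted p = 0.147) and without mouse 4 (1.29, adjusted p = 0.150). Mgp, matrix Gla protein, had 89.3, 454, 318 and 3599.7 CPM in glomerular endothelium, against 98.3, 26.6, 35.0 and 76.1 CPM in peritubular endothelium. It was called at 3.29 (SE 0.63, adjusted p = 0.00658), but not without mouse 2 (2.93, adjusted p = 0.0561), without mouse 4 (2.60, adjusted p = 0.0918) or without the marked cells (-0.61, adjusted p = 0.653). Lpl (8.16), Sema5a (5.62), Tbx3 (5.24), Mapt (4.09) and Plat (2.78) kept their calls with log2 fold changes at least as large. Of the 55 genes named here that were called against peritubular endothelium, 45 kept their direction and call without the marked cells. Over all 613 called genes 398 did (64.9%), a smaller share than among the named genes.

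**Figure D3:**
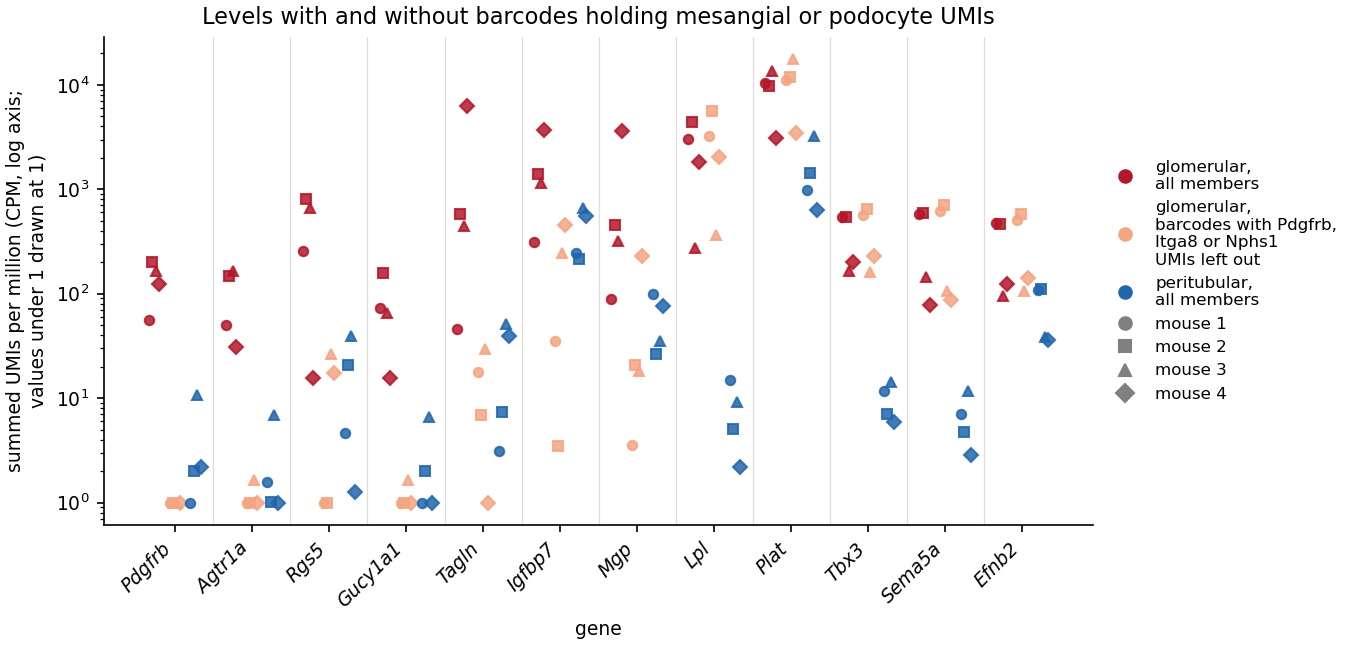
Summed UMIs in CPM (log axis, values under 1 drawn at 1) in glomerular endothelium, in glomerular endothelium without barcodes holding Pdgfrb, Itga8 or Nphs1 UMIs, and in peritubular endothelium, with 1 symbol per mouse. Pdgfrb and Agtr1a drop to at most 1.65 CPM once those barcodes are left out, while Lpl stays between 362 and 5640.3 CPM over the 4 mice.

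Genes of antigen presentation by MHC class II were lower in glomerular than in peritubular endothelium. All 4 tested members of the list were lower, with a median log2 fold change of -1.65, and all 4 calls held with each mouse left out. H2-Aa had 13.2, 13.0, 59.3 and 93.5 CPM in glomerular endothelium, against 38.2, 46.1, 230.2 and 189 CPM in peritubular endothelium (log2 fold change -1.80, SE 0.24, adjusted p = 0.000647). H2-Ab1 had 13.2, 23.4, 33.2 and 140.2 CPM in glomerular endothelium, against 39.0, 40.1, 148 and 259.9 CPM in peritubular endothelium (log2 fold change -1.60, SE 0.28, adjusted p = 0.00343). H2-Eb1 (-1.71) and the invariant chain Cd74 (-1.50) moved alike. These genes encode the chains and chaperone that present peptides to CD4 T cells, and their ranges overlapped between classes because mice 3 and 4 were high in both. The summed level of 4 macrophage markers was 26.5, 18.2, 51.0 and 234 CPM in glomerular endothelium, against 60.9, 67.7, 31.2 and 350 CPM in peritubular endothelium, and its part in the result was not tested. Of 11 MHC class I genes 6 were lower, with a median of -0.82, and 2, 0, 5 and 2 were lower with mice 1 to 4 left out in turn.

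Interferon-induced genes were most abundant in mouse 3 in both classes. Rsad2, the antiviral protein viperin, had 62.9, 25.9, 1306 and 46.7 CPM in glomerular endothelium, against 333, 309, 2949 and 155 CPM in peritubular endothelium (log2 fold change -2.15, SE 0.34, adjusted p = 0.00188). Within each mouse it was lower in the glomerular class. Of 14 tested genes of the type I interferon list 2 were lower, with a median of -0.98. With mice 1 to 4 left out in turn, 1, 1, 9 and 2 of 14 were lower. Cxcl10, an interferon-induced chemokine, had 16.5, 0, 1655 and 31.2 CPM in glomerular endothelium, against 5.46, 3.37, 1401 and 13.2 CPM in peritubular endothelium. It was high in mouse 3 in both classes and was not called between them (0.36, SE 0.37, adjusted p = 0.757).

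Leukocyte adhesion genes went both ways. Cx3cl1, the membrane chemokine fractalkine, had 205, 140.1, 585 and 125 CPM in glomerular endothelium, against 70.2, 56.2, 192 and 33.3 CPM in peritubular endothelium (log2 fold change 1.49, SE 0.19, adjusted p = 0.000537). Sele, the adhesion molecule E-selectin, had 321, 153, 154 and 93.5 CPM in glomerular endothelium, against 21.1, 5.05, 75.6 and 11.3 CPM in peritubular endothelium. Its classes did not overlap, and its log2 fold change of 2.90 (SE 0.52, adjusted p = 0.00420) missed the threshold without mouse 4 (2.91, adjusted p = 0.0536). Vcam1, the adhesion molecule that binds lymphocytes and monocytes, had 3.31, 20.8, 346 and 62.3 CPM in glomerular endothelium, against 59.3, 69.4, 912 and 79.5 CPM in peritubular endothelium, and was lower (log2 fold change -1.66, SE 0.31, adjusted p = 0.00578). Icam1, which was not called, had 225, 93.4, 255 and 93.5 CPM in glomerular endothelium, against 157, 109, 393 and 152 CPM in peritubular endothelium. In the list of 10 tested adhesion genes 2 were thus higher and 1 lower.

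Cytokines were called in the lower direction only, with 4 of 10 tested. Il33, a nuclear alarmin, had 9.92, 44.1, 1.19 and 15.6 CPM in glomerular endothelium, against 192, 229.7, 21.8 and 122 CPM in peritubular endothelium (log2 fold change -3.10, SE 0.33, adjusted p = 0.000142). Tnfsf10, the death ligand TRAIL, had 39.7, 44.1, 91.4 and 0 CPM in glomerular endothelium, against 140.5, 158, 188 and 48.4 CPM in peritubular endothelium (log2 fold change -1.54, SE 0.27, adjusted p = 0.00356). Both calls held with each mouse left out, and the list as a whole gave 2 higher and 2 lower genes without mouse 3. Nr4a1, an immediate early nuclear receptor, had 265, 109, 285 and 62.3 CPM in glomerular endothelium, against 43.7, 21.9, 82.7 and 36.8 CPM in peritubular endothelium (log2 fold change 1.97, SE 0.27, adjusted p = 0.000832).

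**Figure D4:**
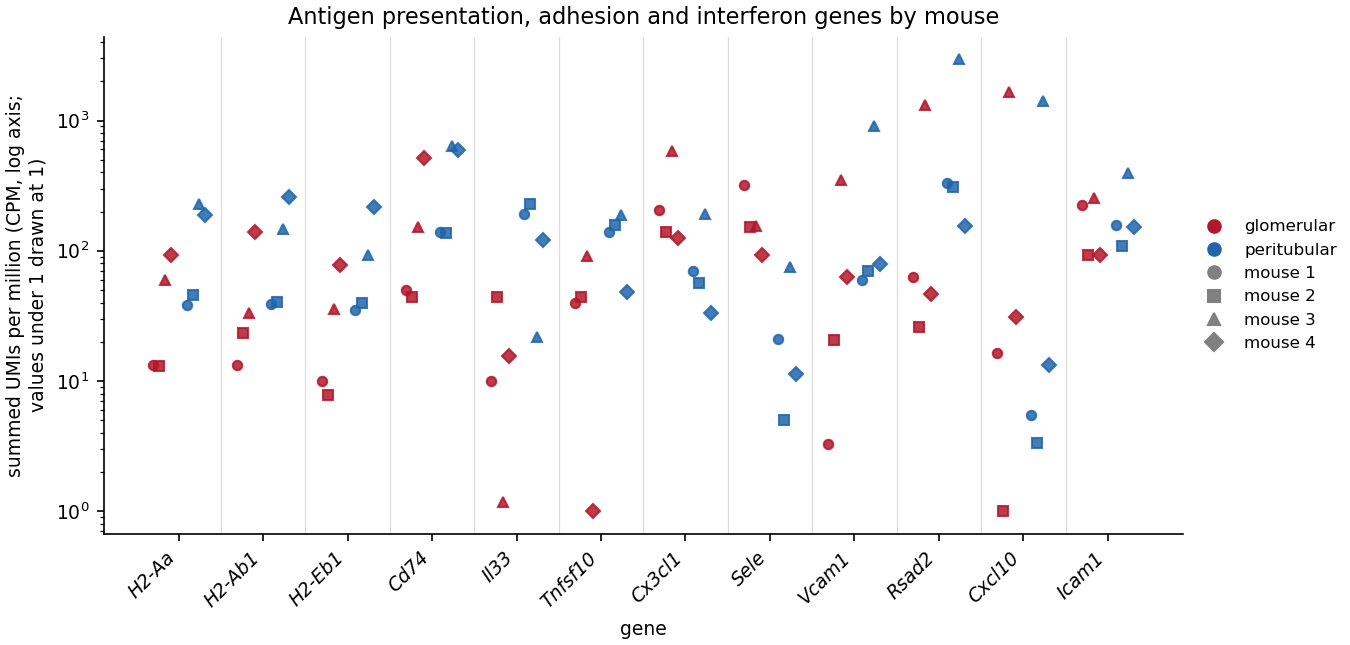
Summed UMIs in CPM (log axis, values under 1 drawn at 1) of 12 antigen presentation, cytokine, adhesion and interferon genes in glomerular and peritubular endothelium, with 1 symbol per mouse. Within each mouse the MHC class II genes, Il33, Tnfsf10, Vcam1 and Rsad2 are lower and Cx3cl1 and Sele are higher in the glomerular class, and mouse 3 stands high for Rsad2 and Cxcl10 in both classes.

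Glomerular endothelium was next set against arterial endothelium. Of the 894 arterial cells, 251 also held Ehd3 UMIs. These were 61 of 125, 87 of 169, 89 of 431 and 14 of 169 cells of mice 1 to 4. Ehd3 stood at 883, 480, 41.5 and 32.4 CPM in the arterial class. Of 8081 genes tested 8.65% were called, of which 313 were higher (3.87%) and 386 lower (4.78%) by the same edgeR test. Without the mouse block 0 were higher and 5 lower (198 and 261 at an unadjusted p under 0.05, and 248 and 297 by DESeq2 with the block), and without mouse 2 the counts were 194 and 204. Without mouse 3 they were 206 higher and 296 lower, and without mouse 1 they were 253 and 256. With the arterial class limited to cells with no Ehd3, they were 275 and 352. The summed mesangial, pericyte and smooth muscle markers were 549, 2278, 1889 and 1356 CPM in glomerular endothelium, against 399, 13166, 972 and 83.5 CPM in arterial endothelium, where mouse 2 stood apart. Without the cells holding mesangial or podocyte UMIs, 273 genes were higher and 358 lower.

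Of the 11 tested genes of the glomerular list 7 were higher and 0 lower, with a median log2 fold change of 1.54 against -0.05 over all genes tested. Lpl had 3023, 4458, 276 and 1808 CPM in glomerular endothelium, against 784, 704, 17.2 and 32.4 CPM in arterial endothelium (log2 fold change 3.29, SE 0.39, adjusted p = 0.000104). Plat had 10437, 9715, 13558 and 3101 CPM in glomerular endothelium, against 2852, 2679.7, 2726 and 477 CPM in arterial endothelium (log2 fold change 2.06, SE 0.20, adjusted p = 1.56e-05). Plat did not overlap between these classes, whereas Lpl did, since arterial cells of mice 1 and 2 held more of it than glomerular cells of mouse 3. Arterial cells with Ehd3, no Plvap and 2 arterial genes had 3163, 3425, 74.1 and 1632 CPM of Lpl. The part of these cells in the overlap was not tested. Gata5 had 112, 70.1, 4.75 and 77.9 CPM in glomerular endothelium, against 40.7, 27.7, 1.64 and 1.70 CPM in arterial endothelium (log2 fold change 1.65, SE 0.37, adjusted p = 0.00959). Sema5a (2.20), Mapt (1.74) and Tbx3 (1.54) were also higher. Pi16 was not called, with 152, 226, 4.75 and 187 CPM in glomerular endothelium, against 263, 211, 13.1 and 109 CPM in arterial endothelium (-0.33, SE 0.23, adjusted p = 0.529).

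Other genes above arterial endothelium named by the rule were Agtr1a, Sele, Cntfr, Gm14226, Meg3, Rgs5, N4bp2l1, Lhfpl6 and Pde8b, with log2 fold changes between 3.19 and 2.40. Agtr1a, Rgs5 and Lhfpl6 again had too few counts to be tested once the cells with mesangial or podocyte UMIs were left out. Meg3 lost its call without mouse 3 (2.11, adjusted p = 0.0774), and N4bp2l1 fell below the count filter then. Sele had 321, 153, 154 and 93.5 CPM in glomerular endothelium, against 18.6, 15.2, 30.8 and 5.11 CPM in arterial endothelium (log2 fold change 3.15, SE 0.28, adjusted p = 1.47e-05). Cntfr, the receptor of ciliary neurotrophic factor, had 172, 283, 3.56 and 46.7 CPM in glomerular endothelium, against 39.0, 15.2, 1.09 and 0 CPM in arterial endothelium (log2 fold change 3.10, SE 0.40, adjusted p = 0.000166). Sele was apart between the classes in every mouse, while Cntfr overlapped through mouse 3. Nrp1 (1.18), Cx3cl1 (1.16), coagulation factor VIII, F8 (1.61), the urokinase receptor Plaur (1.13) and the glycoprotein Cd300lg (1.53) were higher as well, and these 5 calls held with each mouse left out.

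Most tested arterial genes were lower in glomerular endothelium. The gates differ in 5 other arterial genes, so the direction of this list is not independent of them. Of 11 tested genes of the arterial list 8 were lower and 1 higher, with a median of -1.73. Edn1, the vasoconstrictor endothelin-1, had 9.92, 33.7, 41.5 and 77.9 CPM in glomerular endothelium, against 258, 297, 208 and 1061 CPM in arterial endothelium (log2 fold change -3.23, SE 0.30, adjusted p = 1.48e-05). Sema3g, a semaphorin of arteries, had 79.4, 98.6, 126 and 15.6 CPM in glomerular endothelium, against 479, 486, 288 and 216 CPM in arterial endothelium (log2 fold change -2.06, SE 0.27, adjusted p = 0.000184). Neither overlapped between the classes. Vegfc, a lymphangiogenic growth factor (-2.42), Eln, elastin (-2.07), and Ltbp4, a latent TGF-beta binding protein of elastic fibres (-1.86), were also lower with each mouse left out. Efnb2 was the higher member (0.88, SE 0.18, adjusted p = 0.00461), and missed the threshold without mouse 1 (0.82, adjusted p = 0.0512). The Notch ligand Jag1 had 52.9, 15.6, 28.5 and 15.6 CPM in glomerular endothelium, against 118, 103, 93.6 and 97.1 CPM in arterial endothelium (log2 fold change -1.82, SE 0.28, adjusted p = 0.000595). Jag2 went with it (-1.57), and the other 7 of 9 tested Notch genes were not called.

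The lowest genes by the rule were led by Aqp1, the water channel, with 6.62, 2.59, 5.93 and 140.2 CPM in glomerular endothelium, against 1241, 844, 328 and 893 CPM in arterial endothelium (log2 fold change -5.79, SE 0.47, adjusted p = 8.65e-06). Tspan8, a tetraspanin, had 0, 18.2, 4.75 and 31.2 CPM in glomerular endothelium, against 597, 373, 66.9 and 554 CPM in arterial endothelium (log2 fold change -4.98, SE 0.40, adjusted p = 8.65e-06). Both were apart between the classes, and the glomerular value of Aqp1 was highest in mouse 4. Efhd1, Prom1, Fam181b, Fbln2, Npnt, S100a4, Kbtbd11 and Lef1 followed, with log2 fold changes between -4.57 and -3.64, among them the matrix genes Fbln2 (fibulin-2) and Npnt (nephronectin) and the Wnt transcription factor Lef1. Jam2, a junctional adhesion molecule, had 69.5, 80.4, 335 and 77.9 CPM in glomerular endothelium, against 486, 625, 949 and 412 CPM in arterial endothelium (log2 fold change -2.38, SE 0.26, adjusted p = 6.66e-05). Nos3, the endothelial nitric oxide synthase, had 39.7, 44.1, 203 and 46.7 CPM in glomerular endothelium, against 242, 209, 489 and 179 CPM in arterial endothelium (log2 fold change -1.89, SE 0.24, adjusted p = 0.000158). Jam2 did not overlap between the classes, and Nos3 overlapped only through the glomerular cells of mouse 3.

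**Figure D5:**
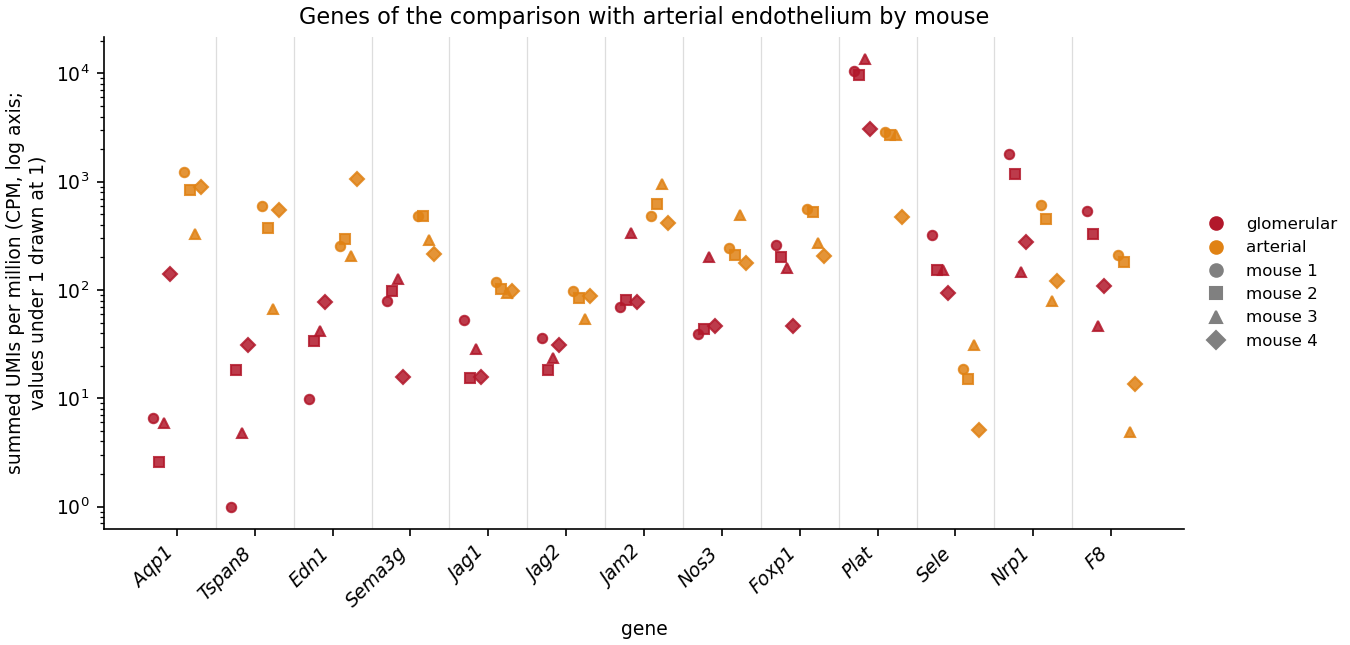
Summed UMIs in CPM (log axis, values under 1 drawn at 1) of 13 genes in glomerular and arterial endothelium, with 1 symbol per mouse. Aqp1, Tspan8, Edn1, Sema3g, Jag1, Jag2 and Jam2 lie lower in the glomerular class of every mouse than in any arterial value, and Plat and Sele lie higher.

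Transcription factors below the arterial level were Irx3 (-2.67), Meox1 (-1.66) and Foxp1 (-1.20), and these 3 calls held with each mouse left out. Irx3 had 6.62, 5.19, 32.0 and 46.7 CPM in glomerular endothelium, against 153, 186, 92.3 and 78.4 CPM in arterial endothelium. Irx3, Meox1, Hs3st1 and Igfbp3 were lower in glomerular endothelium in each comparison, which share the glomerular cells. Tcf15, a factor of fatty acid uptake in heart endothelium of the mouse, had 3.31, 2.59, 8.31 and 0 CPM in glomerular endothelium, against 52.5, 56.8, 39.6 and 73.2 CPM in arterial endothelium (log2 fold change -3.14, SE 0.43, adjusted p = 0.000253). It was the member that held with each mouse left out among 4 lower genes of 11 tested for fatty acid handling, and 2, 2, 2 and 3 were lower with mice 1 to 4 left out in turn. Acvrl1, a BMP receptor of endothelium, was lower by -0.98 (SE 0.21, adjusted p = 0.00689). Of 11 MHC class I genes 5 were lower than in arterial endothelium, and of these Psmb8, an immunoproteasome subunit (-1.05), and H2-Q7 (-0.98) held with each mouse left out, while the number of lower genes was 2, 2, 3 and 2 with mice 1 to 4 left out in turn. The 4 tested MHC class II genes gave 0 calls against arterial endothelium in edgeR and in DESeq2, with 2 lower at an unadjusted p under 0.05. Their summed level was 86.0, 98.6, 291 and 826 CPM in glomerular endothelium, against 244, 165, 407 and 579 CPM in arterial endothelium. The sum was lower in mice 1 to 3 and higher in mouse 4.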

How the data were processed

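Droplet single-cell RNA-seq was deposited as 1 matrix of UMI counts per mouse. The counts are whole numbers, not normalized, made with Cell Ranger 9.0.1 per the file headers, and the submitters' processing notes also name Seurat 4.1.1. The genome build, the annotation and any removal of doublets are not stated in the sources read. The 4 libraries held 66762741, 64757026, 105436725 and 36831995 UMIs in 48213 barcodes. The median ribosomal protein share of a cell was 13.7% in mouse 4, against 1.48%, 1.52% and 2.35% in mice 1 to 3.

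Raw counts were summed per mouse and class, and tested with edgeR 4.0.16 (R 4.3.3, quasi-likelihood, TMM, filterByExpr), the mouse entering as a block. P-values were adjusted by Benjamini-Hochberg over all genes tested, and fold changes are glomerular over the other class. The SE of a log2 fold change was derived as its absolute value over the square root of the F statistic. It is not a standard error reported by edgeR. The classes compared share their mice, and deviations of same-mouse sums correlated with r between 0.42 and 0.70 for peritubular and between 0.49 and 0.76 for arterial endothelium. Sums of mouse 1 against mouse 2, and the reverse, gave 0.44 and 0.40 for peritubular and 0.44 and 0.46 for arterial endothelium. Same-mouse values of mice 1 and 2 were close to these, at 0.46 and 0.42, and at 0.51 and 0.49. All other values between different mice were negative. The 15 genes of the gate entered no test. Separate mice are taken from the labels. The fits were tested on simulated data with 100 genes changed at each size. The simulation gave every gene the same dispersion, which was set and not estimated from these data. Recovery in the real data can thus be lower than the shares given here. At a log2 fold change of 2, 80 were recovered for the peritubular and 82 for the arterial comparison. At a log2 fold change of 1, only 11 and 5 were recovered. A gene or list with no call is thus not shown to be without a difference. Named genes are the 10 highest and 10 lowest log2 fold changes among called genes with the same direction in every mouse and 50 CPM or more in the higher class, leaving out ribosomal and mitochondrial genes, plus members of 27 gene lists. The members and lists were chosen with earlier results of these data known. No doublet caller was run, and alternatives removed mixed barcodes. Of 12 genes looked up, 6 had a RefSeq promoter and 4 are shown. Promoters of Lpl, Tbx3, Plat and Mapt were not used here. Alternatives used DESeq2 1.42.0, other filters, gates and depths, and each mouse left out.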

Additional observations from a re-analysis of the deposited data

Results flagged for a closer look

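In the glomerular class, 17 of 90 values checked had 1 mouse apart from the other 3. The 5% that chance gives in groups of 4 holds for normally distributed values, not for sparse CPM of genes chosen from these data. Tll1, Kcnj8 and Prom1 had 0 CPM in the other 3 mice, so any UMI in the remaining mouse gave a flag. The 17 are thus not read as an excess over chance. Mouse 3 was the high value for Igfbp3 (1546 CPM), Tll1 (9.49), Kcnj8 (32.0), Cxcl10 (1655), Rsad2 (1306), N4bp2l1 (191), Prom1 (4.75), Jam2 (335) and Nos3 (203). For Igfbp3, an insulin-like growth factor binding protein, the other mice held 184 to 389.6 CPM, and for the interferon-induced Rsad2 they held 25.9 to 62.9 CPM. Mouse 4 was the high value for Tagln (6218 CPM), Lbp (77.9), Mgp (3599.7), H2-Ab1 (140.2), Aqp1 (140.2), Fam181b (15.6), S100a4 (280.5) and Lef1 (62.3). Its class was the smallest, with 21 cells and 64172 UMIs, and 1 of those cells held mesangial or podocyte UMIs. The smooth muscle gene Tagln had 46.3 to 581 CPM in the other mice. Without the 1 cell of mouse 4 that held mesangial or podocyte UMIs, its glomerular class had 0 CPM of Tagln and 228 CPM of Mgp. The other flagged genes of mouse 4 were not lower then, with H2-Ab1 at 158, Aqp1 at 158 and S100a4 at 316 CPM. The part of depth and of cell number in these values was not tested.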

How the results depend on the processing

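Against peritubular endothelium (293 genes higher, 320 lower) the counts were 546 and 676 with no filter on low counts, 34 and 9 with no replicate block, 80 and 103 with cells thinned to 1000 UMIs after gating, and 81 and 66 with thinning before it. Leaving out mixed barcodes gave 202 lower. Against arterial endothelium (313 higher, 386 lower) the same settings gave 485 and 645, 0 and 5, 57 and 84, 31 and 35, and 220 lower. The unblocked fit ignores that both classes come from 1 mouse. Leaving out 1 mouse at a time gave 136 to 307 higher and 122 to 362 lower against peritubular endothelium, 194 to 367 higher and 204 to 315 lower against arterial endothelium, and a mean share of the gate between 2.64% and 4.49%. DESeq2, a mitochondrial limit of 20%, a gate at 2 UMIs and, chosen after seeing the data, leaving out cells with mesangial or podocyte UMIs or arterial cells with Ehd3 stayed within 1.5 times of these counts. DESeq2 shared 532 of 613 peritubular and 529 of 699 arterial calls. Stricter gating, mixed barcodes and thinning before gating left 3 mice, since mouse 4 had under 20 cells. Signs reversed for Igfbp7 without cells holding mesangial or podocyte UMIs (-1.87) and with thinning before gating (-0.74), for Mgp without those cells (-0.61), and for Icam1, which was not called, without mixed barcodes (0.13), and with thinning after (0.0207) or before gating (0.0209). The cause was not tested. The glomerular class of mouse 4, with 64172 UMIs, limits what could be seen there.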

Other observations

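Calr, Hspa5 and Hsp90b1, chaperones of the endoplasmic reticulum picked after their values were seen, were each called higher in glomerular than in peritubular endothelium, while of 11 tested genes of the list of heat shock proteins and chaperones 1 was higher, with a median log2 fold change of -0.03. Calr, the lectin chaperone calreticulin, had 576, 560.5, 987 and 343 CPM in glomerular endothelium, against 209, 222, 239 and 121 CPM in peritubular endothelium (log2 fold change 1.51, SE 0.21, edgeR adjusted p = 0.000878). Against arterial endothelium its log2 fold change was 1.02 (SE 0.19, adjusted p = 0.00315), and both calls held with each mouse left out. Hspa5, the chaperone BiP, had 863, 1282, 5075 and 405 CPM in glomerular endothelium, against 279, 309, 1293 and 235 CPM in peritubular endothelium. Mouse 3 was the highest in both classes. The call of Hspa5 (1.58, adjusted p = 0.00356) was lost without mouse 2 (1.38, adjusted p = 0.0576), and so was that of Hsp90b1, the chaperone GRP94 (1.31, adjusted p = 0.0138, and 1.27, adjusted p = 0.108 without mouse 2). Against arterial endothelium the call of Hspa5 (0.99) was lost without mouse 1 (0.98, adjusted p = 0.0543) and without mouse 3 (0.75, adjusted p = 0.0551). That of Hsp90b1 (0.99) was lost without mouse 3 (0.70, adjusted p = 0.0581).

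Slco2a1, a prostaglandin transporter, and Dkk2, a secreted modulator of Wnt signalling, were also chosen after their values were seen. Slco2a1 had 503, 542, 267 and 421 CPM in glomerular endothelium, against 37.5, 19.2, 32.7 and 18.2 CPM in peritubular endothelium (log2 fold change 3.87, SE 0.28, edgeR adjusted p = 1.17e-05). Dkk2 had 1065, 547, 49.8 and 249 CPM in glomerular endothelium, against 49.2, 19.2, 1.74 and 21.7 CPM in peritubular endothelium (log2 fold change 4.34, SE 0.30, adjusted p = 7.86e-06). Neither overlapped between the classes, and both were also higher than in arterial endothelium (1.28 for Slco2a1 and 2.00 for Dkk2), with calls that held with each mouse left out.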
